A study of Mus musculus with 2 samples.

Results

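The 10 genes described here encode parts of the cytotoxic granule: *Gzmb*, *Prf1*, *Srgn*, *Nkg7*, *Ctsw*, *Ctsc*, *Serpinb9*, *Serpinb6b*, *Lamp1* and *Unc13d*. They were taken by name for their role in the granule, with earlier results of these data known. All 10 of them were found among the 32285 genes of the count tables. They were measured in CD8+ tumor-infiltrating lymphocytes (TIL) sorted from tumors of B16 F0, a transplanted mouse melanoma line, in male C57BL/6J mice labelled as 16 weeks of age. The lean group was kept on normal chow and the obese group on a western diet from weaning, and no transgene or deletion is given for either. Each group is 1 droplet library with RNA counted at the 3′ end, and how many mice were pooled in it is not given in the sources used here. There are therefore no replicates, and no test between the groups was possible. Intervals are 95% intervals for counting error and do not cover differences between mice. Those given for a median average the bounds of its middle genes and have no exact coverage.

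Cytotoxic T cells kill by releasing the content of secretory lysosomes toward a bound target cell. Perforin opens a path through the target membrane, and granzymes, stored on the proteoglycan serglycin and trimmed to their active form by cathepsin C, cleave proteins inside the target. Membrane proteins such as LAMP1 and NKG7 line the granule, Munc13-4 prepares it for fusion at the cell surface, and clade B serpins in the cytosol inhibit granzymes that escape into the killer cell itself.

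Unique molecular identifiers (UMIs) each mark 1 captured RNA molecule, and only cells holding between 500 and 50000 of them with less than 7.5% on mitochondrial genes were used. This left 2456 of 2697 lean cells with 27815785 UMIs and 2289 of 2623 obese cells with 28705830 UMIs, with a median of 7958 and 9103 UMIs per cell. Both libraries carried the T cell markers of the sort, with *Cd3d* at 1375 UMIs per 1000000 UMIs (CPM) in lean and 1161 CPM in obese cells, and *Cd8a* at 591 and 515 CPM. Of the other lineages, *Cd4* was at 1.04 and 1.29 CPM, the summed 4 melanoma markers at 0.683 and 1.01 CPM, and the summed 4 NK cell markers at 50.01 and 43.1 CPM. Of these NK cell markers, *Tyrobp* was at 17.9 and 23.1 CPM, *Fcer1g* at 29.2 and 19.1 CPM, *Klrb1c* at 69 and 25 UMIs and *Ncr1* at 11 and 0 UMIs. The NK sums include a small cluster, given further on, in which these markers were high. They therefore do not show that the libraries were alike in the other cells. The summed 4 dendritic cell markers were at 95.7 CPM in lean and 202 CPM in obese cells. Of the lists for other lineages, the libraries stood furthest apart on the 4 hemoglobin genes of red cells, which had no UMI in lean cells and summed to 320.2 CPM in obese cells. Only 2 of the barcodes kept were shared by the libraries.

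Together the 10 granule genes took 148166 UMIs, or 0.533% of all UMIs, in the lean library and 107349 UMIs, or 0.374%, in the obese library. *Prf1*, *Gzmb*, *Serpinb9* and *Serpinb6b* were lower in the obese library by 0.5 or more on the log2 scale, which 1.84% of the 7064 genes with at least 10 CPM in 1 library were. *Prf1* and *Gzmb* were lower by 1 or more, a size reached by 0.382% of those genes. None of the 10 was higher by 0.5 or more, against 2.51% of all genes. As the 10 genes were chosen with earlier results of these data known, these shares only describe them. *Nkg7*, *Ctsc*, *Ctsw*, *Unc13d* and *Srgn* were lower by smaller amounts and *Lamp1* was at nearly the same level in both. The median log2 ratio of obese over lean was −0.35 over the 10 genes (−0.41 to −0.28, from the intervals of its middle genes *Nkg7* and *Ctsc*) and 0.035 over all 7064 genes. Because the cells of each library were summed, fewer cells with a transcript and less transcript per cell cannot be told apart in these values. The counts per cell given further on describe both and do not fully separate them.

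**Figure D1:**
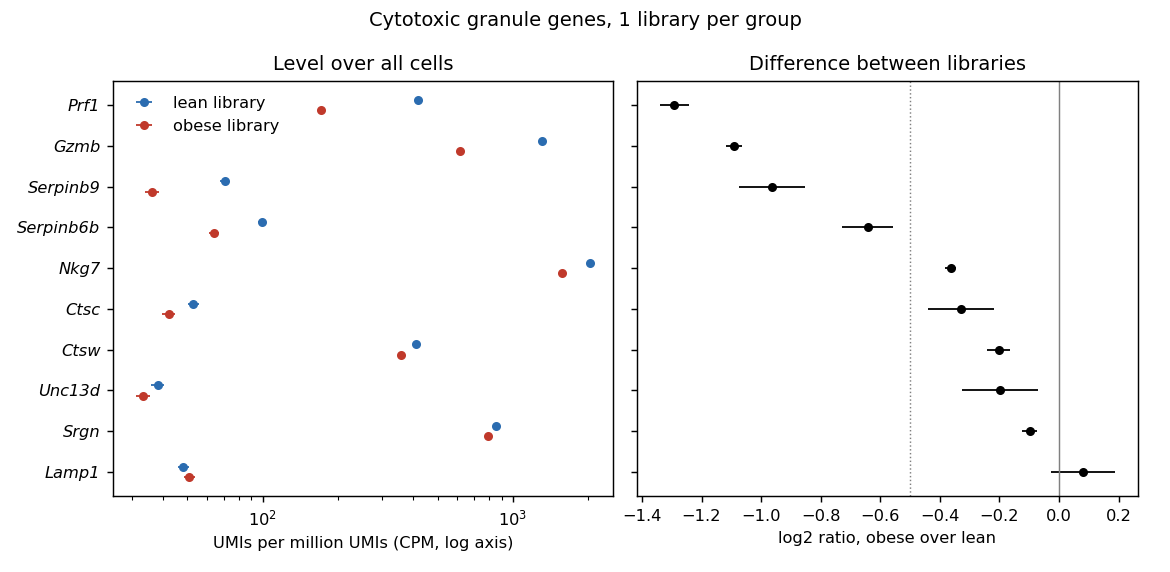
Left, the level of each granule gene over all cells of the lean and the obese library in CPM on a log axis; right, the log2 ratio of obese over lean, with a solid line at 0 and a dotted line where obese is lower by 0.5. Bars are 95% counting intervals of 1 library per group; *Prf1*, *Gzmb*, *Serpinb9* and *Serpinb6b* lie left of the dotted line and the interval of *Lamp1* includes 0.

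The effector proteins of the granule showed the widest gaps. *Gzmb* (ENSMUSG00000015437, chromosome 14 from 56258838 to 56262260, minus strand) encodes granzyme B, a serine protease that starts apoptosis in the target. It was at 1311 CPM in the lean library (1298 to 1325) and 616 CPM in the obese library (607 to 625). On the log2 scale obese stood at −1.09 relative to lean (−1.12 to −1.06), and 0.354% of the genes tested had a lower ratio. *Prf1* (ENSMUSG00000037202, chromosome 10 from 61297833 to 61304680, plus strand) encodes perforin, the pore former. It was at 417 CPM in lean cells (410 to 425) and 171 CPM in obese cells (166 to 175), for which the log2 ratio was −1.29 (−1.34 to −1.24). The lean library was therefore higher in both genes, by 2.13 times for *Gzmb* and 2.45 times for *Prf1*.

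The cytosolic serpins followed. *Serpinb9* (ENSMUSG00000045827, chromosome 13 from 33003250 to 33017957, plus strand) encodes an inhibitor of granzyme B and was at 70.4 CPM in lean and 36.1 CPM in obese cells. Its log2 ratio was −0.96 (−1.07 to −0.85). *Serpinb6b* (ENSMUSG00000042842, chromosome 13 from 32965209 to 32979067, plus strand) encodes a related serpin and was at 99.3 and 63.6 CPM, with −0.64 as log2 ratio (−0.73 to −0.56).

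The genes for storage and for granule proteases differed less. *Srgn* (ENSMUSG00000020077, chromosome 10 from 62493833 to 62527451, minus strand), the core protein of serglycin, was at 854 CPM in lean and 797 CPM in obese cells, a log2 ratio of −0.10 (−0.13 to −0.07). *Ctsc* (ENSMUSG00000030560, chromosome 7 from 88278085 to 88310888, plus strand), the protease that activates granzymes, was at 52.8 and 42.1 CPM, a log2 ratio of −0.33 (−0.44 to −0.22). *Ctsw* (ENSMUSG00000024910, chromosome 19 from 5465043 to 5468507, minus strand), a cysteine protease of killer lymphocytes, was at 409 and 356 CPM, a log2 ratio of −0.20 (−0.24 to −0.16). *Ctsw* overlaps *Fibp* on the other strand, which was at 36.4 and 30.9 CPM, and *Ctsc* overlaps *Gm26522* on the other strand. Whether the counting used strand is not given in the sources used here.

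Of the membrane proteins, *Nkg7* (ENSMUSG00000004612, chromosome 7 from 43437073 to 43438249, plus strand) was at 2027 CPM in lean and 1575 CPM in obese cells, a log2 ratio of −0.36 (−0.38 to −0.35). Since UMIs mark molecules at the 3′ end and were not divided by gene length, it had the most molecules counted among the 10 genes in both libraries. *Lamp1* (ENSMUSG00000031447, chromosome 8 from 13159161 to 13175338, plus strand) is found on lysosomes of most cells and appears on the surface of a T cell that has released granules. Lean cells had 48.2 CPM (45.7 to 50.9) and obese cells 50.9 CPM (48.4 to 53.6), and the interval of the log2 ratio, 0.079, reached from −0.03 to 0.19. The 2 libraries could not be separated for *Lamp1* at this depth. It overlaps *Grtp1* on the other strand, which had 6 UMIs in each library. *Unc13d* (ENSMUSG00000057948, chromosome 11 from 116062095 to 116077961, minus strand) encodes Munc13-4 and was at 38.1 and 33.2 CPM, a log2 ratio of −0.20 (−0.33 to −0.07).

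Promoters of 8 of the 10 genes were matched in the RefSeq table of GRCm38.p6, each reaching from 250 bases before to 50 bases after a transcription start, and those of *Gzmb* and *Prf1*, the genes with the lowest ratios, and of *Lamp1*, which did not share them, are shown 5′ to 3′ along the gene. They lie at chr14:56262285-56262584 on the minus strand for *Gzmb*, at chr10:61297586-61297885 on the plus strand for *Prf1* and at chr8:13158911-13159210 on the plus strand for *Lamp1*. Capitals mark every match, on either strand, of the motif letters searched: TGTGGT for Runx factors, TGANTCA for AP-1, CACGTG for E-box proteins of the lysosomal gene network, CCGGAAG for Ets factors, AGGTGTGA for T-box factors and TGACGTCA for CRE-binding factors. A motif on the other strand appears as its reverse complement.
Gzmb: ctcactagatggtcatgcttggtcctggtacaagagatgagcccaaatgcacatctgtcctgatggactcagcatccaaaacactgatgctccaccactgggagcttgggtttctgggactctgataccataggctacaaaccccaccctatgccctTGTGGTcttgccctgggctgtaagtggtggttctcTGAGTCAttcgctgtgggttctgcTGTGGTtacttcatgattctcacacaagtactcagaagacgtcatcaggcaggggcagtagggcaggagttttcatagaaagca
Prf1: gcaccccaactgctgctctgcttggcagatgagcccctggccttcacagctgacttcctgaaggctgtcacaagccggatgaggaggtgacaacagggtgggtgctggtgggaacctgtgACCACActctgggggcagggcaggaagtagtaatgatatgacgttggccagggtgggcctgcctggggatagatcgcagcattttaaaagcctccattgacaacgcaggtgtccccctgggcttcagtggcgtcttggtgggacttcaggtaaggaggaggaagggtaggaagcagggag
Lamp1: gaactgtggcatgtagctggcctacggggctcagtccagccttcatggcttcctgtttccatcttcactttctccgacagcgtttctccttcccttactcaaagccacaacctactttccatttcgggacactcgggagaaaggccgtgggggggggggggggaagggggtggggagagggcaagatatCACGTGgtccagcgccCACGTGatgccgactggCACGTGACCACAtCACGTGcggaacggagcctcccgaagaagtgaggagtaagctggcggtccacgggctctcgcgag

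Distances are from the RefSeq start. For *Gzmb* that start lies before the 5′ end of the gene position given above, 56262260, so the whole window, from 56262285, is outside that gene position. In the *Gzmb* promoter the AP-1 letters began 58 bases and the Runx letters 93 and 34 bases before the RefSeq start. The *Prf1* promoter held the Runx letters 130 bases before the start and none of the other motifs. The *Lamp1* promoter held the E-box letters 4 times, at 61, 45, 28 and 15 bases before the start, with the Runx letters 22 bases before it, next to an E-box and sharing no base with it. Of all 32851 promoters of that length in the table, 16.8% held the Runx letters, 7.81% the AP-1 letters and 7.15% the E-box. Across the 9 promoters of the 8 genes (*Srgn* has 2), the Runx letters were in 6, the AP-1 letters only in that of *Gzmb* and the E-box only in that of *Lamp1*. The Ets letters were in 1 *Srgn* promoter (8.86% of all promoters), the T-box letters in that of *Nkg7* (1.28%) and the CRE letters in none of them (1.79%). These matches describe the letters only, and no binding was measured.

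To see in which cells the genes were expressed, both libraries were clustered together, with the 10 genes, their listed pathway partners and their paralogs left out of the clustering. Of 6 clusters, cluster 0 (475 lean and 737 obese cells) was led by *Gzma* and carried interferon-stimulated genes such as *Ifit3* and *Isg15*. Cluster 1 (486 and 574 cells) carried proliferation genes such as *Birc5* and *Stmn1*, and cluster 2 (573 and 425 cells) the naive- or memory-like genes *Lef1* and *Tcf7*. Cluster 0 was named for the interferon-stimulated markers among its leading genes, which summed to 845 CPM in lean and 639 CPM in obese cells over the whole list. The listed naive- or memory-like markers summed to more there, 1710 and 1333 CPM, against 2806 and 3288 CPM in cluster 2. Cluster 3 (605 and 283 cells) was effector-like, led by *Gzmd*, *Gzmg*, *Penk*, *Gzme* and *Gzmf*. The listed effector-like markers summed to 5848 CPM in its lean and 3419 CPM in its obese cells. They were also at 3984 and 2289 CPM in cluster 1, where the proliferating-like markers summed to 2903 and 2908 CPM. In cluster 0 the effector-like markers summed to 1188 and 1169 CPM. Cluster 4 (309 and 249 cells) had a median of only 2322 and 2415 UMIs per cell and was left unnamed, and its leading hemoglobin genes had no UMI in its lean cells and summed to 10324 CPM in its obese cells. Cluster 5 (8 and 21 cells) carried dendritic cell genes and was too small to be described.

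Across clusters 0 to 3, 4 of the granule genes varied steeply and 6 little. The shallow cluster 4 was left out of these ranges, and in it *Unc13d* was at 125 CPM in lean and 72.1 CPM in obese cells and *Srgn* at 240 and 393 CPM, outside their levels in clusters 0 to 3. With the libraries averaged, *Gzmb* was 53.3 times and *Prf1* 18.2 times as high in its highest as in its lowest cluster of clusters 0 to 3, which were the effector-like cluster 3 and the naive- or memory-like cluster 2 for both. *Serpinb9* (12.3 times) and *Serpinb6b* (10.4 times) were highest and lowest in these clusters as well. The range was 3.28 times for *Nkg7*, 2.57 times for *Ctsc*, 1.95 times for *Unc13d*, 1.92 times for *Srgn*, 1.83 times for *Lamp1* and 1.66 times for *Ctsw*. *Lamp1* and *Ctsw* were highest in the interferon-stimulated-like cluster 0 and lowest in the proliferating-like cluster 1. *Gzmb*, *Prf1*, *Serpinb9* and *Serpinb6b*, which varied by over 10 times, were also those lower by 0.5 or more in the obese library over all cells.

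In the effector-like cluster 3, *Gzmb* was at 2000 CPM in lean and 915 CPM in obese cells, a log2 ratio of −1.13 (−1.18 to −1.08), and *Prf1* at 665 and 370 CPM, a log2 ratio of −0.85 (−0.93 to −0.77). *Nkg7* was at 2952 and 1975 CPM there, a log2 ratio of −0.58 (−0.61 to −0.54), wider than over all cells. *Serpinb9* had a log2 ratio of −0.63, *Ctsc* −0.55, *Ctsw* −0.44 and *Serpinb6b* −0.18. *Srgn* was at 1071 CPM in lean and 1075 CPM in obese cells, a log2 ratio of 0.0051 (−0.05 to 0.06), in the cluster where it was most abundant. In this cluster 5 of the 10 genes were lower by 0.5 or more, against 5.06% of the genes tested, and their median was −0.49 (−0.66 to −0.33).

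In the proliferating-like cluster 1, where the cells were deepest, *Gzmb* was at 1584 and 756 CPM, a log2 ratio of −1.07 (−1.10 to −1.03), and *Prf1* at 478 and 185 CPM, a log2 ratio of −1.37 (−1.44 to −1.30). *Serpinb9* was at 85.7 and 41.0 CPM, a log2 ratio of −1.06 (−1.21 to −0.91), and *Serpinb6b* at 105 and 59.4 CPM, a log2 ratio of −0.82 (−0.94 to −0.69). *Lamp1* was the exception, at 37.0 CPM in lean and 42.1 CPM in obese cells, a log2 ratio of 0.19 (0.0039 to 0.37). The median of the 10 genes was −0.33 (−0.42 to −0.24), and 4 of them were lower by 0.5 or more, against 2.66% of the genes tested.

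The ratios of *Gzmb* and *Prf1* and the median of the 10 genes were nearer to 0 in clusters 0 and 2 than in clusters 1 and 3, but those of *Serpinb9*, *Ctsw*, *Srgn* and *Unc13d* were not nearer in each case. In the interferon-stimulated-like cluster 0, *Prf1* was at 62.7 CPM in lean and 62.6 CPM in obese cells (interval of the log2 ratio −0.27 to 0.28), *Nkg7* at 2008 and 2009 CPM, and *Gzmb* at 546 and 468 CPM, a log2 ratio of −0.22 (−0.32 to −0.13). None of the 10 genes was lower by 0.5 or more there, against 3.64% of the genes tested, and their median was −0.16 (−0.32 to 0.0041). Cluster 2, the naive- or memory-like cells, had *Gzmb* at 32.6 CPM (147 UMIs) and 22.2 CPM (79 UMIs), a log2 ratio of −0.55 (−0.97 to −0.15). Of the 9 granule genes with at least 10 CPM in 1 library there, only *Gzmb* was lower by 0.5 or more, against 4.53% of the genes tested. *Serpinb9* was below that level in both libraries, at 8.86 CPM (40 UMIs) and 4.21 CPM (15 UMIs), a log2 ratio of −1.07 (−2.04 to −0.19). The median of the 10 was −0.017 (−0.44 to 0.40). The ratios of different clusters were set side by side and their differences were not tested. In the shallow cluster 4, *Srgn* was higher in the obese library (240 and 393 CPM, log2 ratio 0.71, 0.46 to 0.96) and *Prf1* lower (453 and 244 CPM). *Serpinb9* (62.5 and 33.8 CPM, log2 ratio −0.89, −1.58 to −0.22) and *Unc13d* (125 and 72.1 CPM, −0.79, −1.26 to −0.34) were also lower there. The median of the 10 genes in cluster 4 was −0.23 (−0.63 to 0.17).

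**Figure D2:**
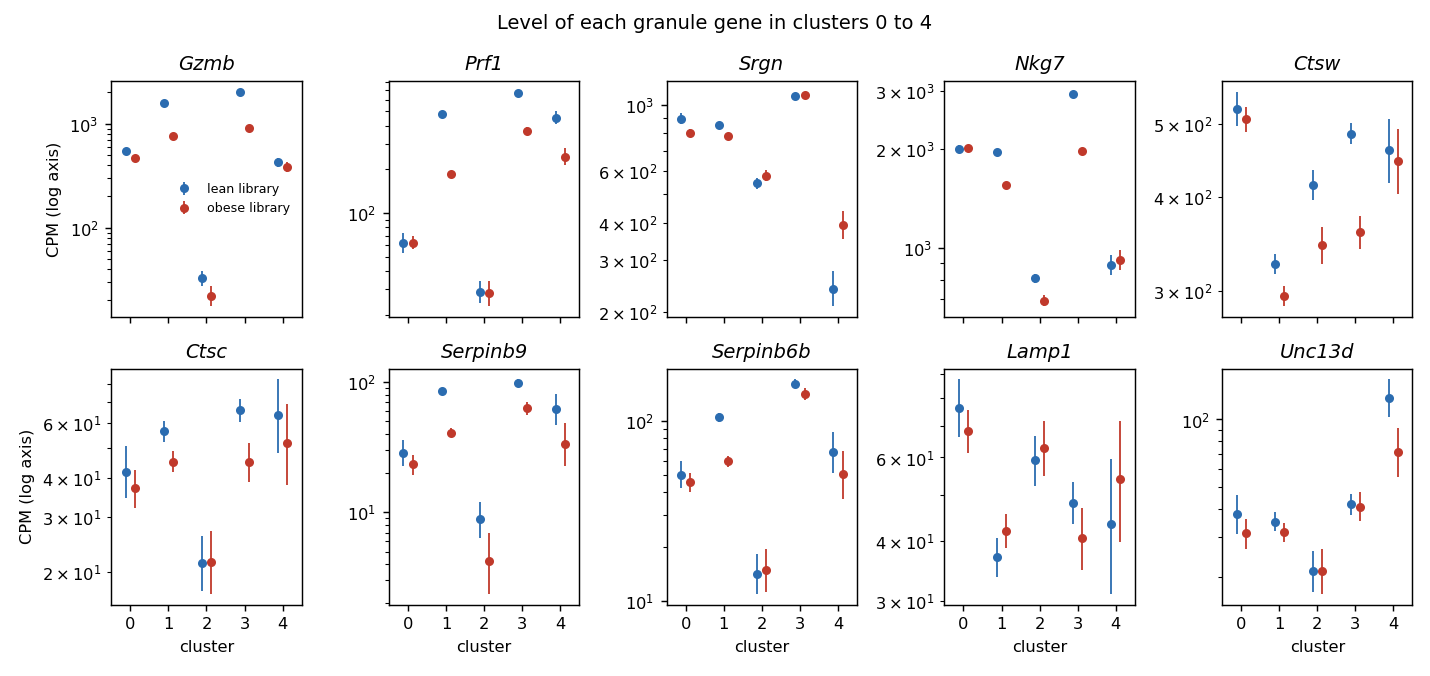
Level of each granule gene in CPM on a log axis, whose range differs between panels, in clusters 0 (interferon-stimulated-like), 1 (proliferating-like), 2 (naive- or memory-like), 3 (effector-like) and 4 (shallow, unnamed). Points are the lean and the obese library with 95% counting intervals; *Gzmb* and *Prf1* are far apart in clusters 1 and 3 and lowest in cluster 2.

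Since cluster 3 held 24.6% of lean and 12.4% of obese cells, the ratios were also computed with every cluster given the same weight in both libraries. *Gzmb* then had a log2 ratio of −1.0, *Prf1* −1.07, *Serpinb9* −0.85 and *Serpinb6b* −0.45, against −1.09, −1.29, −0.96 and −0.64 over all cells as they were. The other 6 genes moved by at most 0.077, the change of *Lamp1* to 0.0023. *Gzmb*, *Prf1* and *Serpinb9* were thus still lower by over 0.5 at an equal mix of clusters, and *Serpinb6b* was not.

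Cells were then compared at equal depth, with each cell thinned at random to 2000 UMIs, which 2330 lean and 2177 obese cells reached. A *Gzmb* UMI was found in 46.3% of lean cells (44.2% to 48.3%) and 34.5% of obese cells (32.5% to 36.5%), and a cell with *Gzmb* held on average 3.92 and 2.76 of its UMIs. *Prf1* was found in 30.2% (28.4% to 32.1%) and 16.0% (14.5% to 17.6%), with 1.91 and 1.38 UMIs per cell that had any. Both the share of cells and the UMIs per positive cell were thus lower in the obese library for these genes. At a fixed depth a lower level in each cell also lowers the share of cells with a UMI. These values therefore do not separate fewer cells from less transcript per cell. In the proliferating-like cluster 1, *Gzmb* was found in 70.4% of lean and 54.5% of obese cells after thinning, and in 89.9% and 83.3% without it. In the naive- or memory-like cluster 2, taken as the level that free RNA or rare transcripts give, the shares were 6.28% and 3.53% for *Gzmb* and 6.11% and 4.94% for *Prf1*. Without thinning, at the median depths of 7958 and 9103 UMIs, *Gzmb* was found in 58.2% and 53.1% of all cells, and in 15.5% and 11.3% of cluster 2, whose median depths were 7479 and 7908 UMIs.

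The remaining genes split by abundance at this depth. *Nkg7* was found in 86.2% of lean and 83.6% of obese cells, *Srgn* in 72.6% and 74.4%, and *Ctsw* in 53.8% and 50.4%. *Serpinb9* was found in 9.70% and 5.19% and *Serpinb6b* in 11.9% and 7.58%, in each case with intervals that do not overlap. *Ctsc* (8.76% and 7.99%), *Lamp1* (10.9% and 9.51%) and *Unc13d* (7.73% and 6.34%) had overlapping intervals. The share of all genes whose intervals are apart at this depth is not given here. The split is therefore not read as particular to these 5 genes. A cell that held 1 of these 5 rarer genes mostly held 1 UMI of it, with means between 1.07 and 1.22 UMIs, so absence from a cell says little about that cell.

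*Gzmb* and *Prf1* were seen together in 538 of 2330 lean cells, 23.1% (21.4% to 24.9%), and in 200 of 2177 obese cells, 9.19% (8.01% to 10.5%). The difference was −13.9 percentage points (−16.0 to −11.8). Cells with *Gzmb* and no *Prf1* were 23.2% of the lean and 25.3% of the obese library, and cells with neither 46.6% and 58.7%. Among cells with a *Gzmb* UMI, 49.9% of the lean cells (46.9% to 52.9%) and 26.6% of the obese cells (23.5% to 29.9%) also had a *Prf1* UMI. In cluster 3 the share with both was 44.1% in lean and 19.8% in obese cells, in cluster 1 it was 38.3% and 14.7%, and in cluster 0 it was 7.84% and 5.48% with overlapping intervals.

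The 10 genes were also counted per cell. The median cell held 3 of them in either library, and the highest count was 8. Cells with 5 or more were 23.4% of the lean library (21.7% to 25.2%) and 10.8% of the obese library (9.52% to 12.2%), a difference of −12.6 percentage points (−14.8 to −10.4). Another random thinning gave 23.2% and 12.4%, and the obese share then lay above the interval just given. These intervals do not cover the spread between random thinnings. In cluster 3 such cells were 45.5% of lean and 18.4% of obese cells, in cluster 1 they were 30.5% and 14.7%, and in cluster 2 they were 1.92% and 0.706%. Cells with 7 or more numbered 46 in the lean and 12 in the obese library. Without thinning the shares with 5 or more were 61.9% and 60.9%, a difference of −1.03 points (−3.83 to 1.77), at a higher median depth in the obese library.

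**Figure D3:**
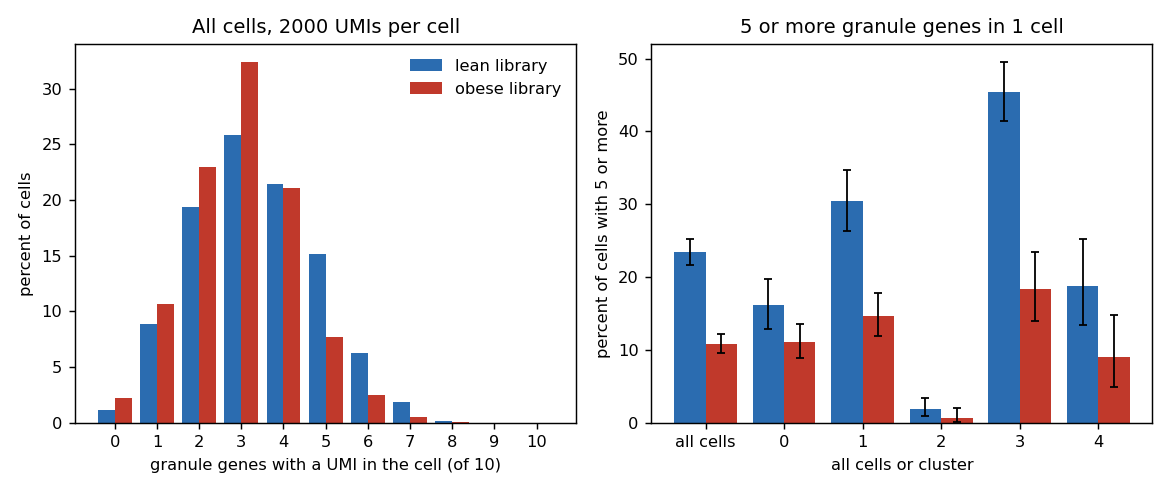
Left, percent of cells by how many of the 10 granule genes had a UMI, after each cell was thinned to 2000 UMIs (2330 lean and 2177 obese cells); right, percent of cells with 5 or more of them, over all cells and in clusters 0 to 4, with exact binomial 95% intervals. The lean bars are clearly higher from 5 genes upward, and cluster 3 has the tallest pair, 45.5% against 18.4%.

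For every pair of the 10 genes, the share of cells with both was set against the product of their separate shares. *Serpinb9* with *Serpinb6b* stood highest, at 2.27 times the product in lean and 2.34 times in obese cells. *Prf1* with *Serpinb9* was at 1.79 and 1.77 times, *Prf1* with *Serpinb6b* at 1.68 and 2.09 times, *Gzmb* with *Prf1* at 1.65 and 1.67 times and *Gzmb* with *Serpinb9* at 1.60 and 1.80 times. Over all cells *Gzmb*, *Prf1*, *Serpinb9* and *Serpinb6b* thus made up the pairs found together most often relative to their shares. There *Lamp1* was at 0.89 times the product with *Gzmb* and 0.81 times with *Prf1* in lean cells. This ratio cannot exceed 1 divided by the share of the more common gene. Pairs with *Nkg7* or *Srgn*, found in most cells, could therefore not rank high by it. *Gzmb* with *Nkg7* was at 1.10 times in lean and 1.13 times in obese cells. Within cluster 1 the ratio of every pair of *Gzmb*, *Prf1*, *Serpinb9* and *Serpinb6b* was nearer to 1 than over all cells, in both libraries. *Gzmb* was found in 70.4% of lean and 54.5% of obese cells of cluster 1. For its pairs in lean cells, the limit there lay below their ratios over all cells, so their drop was fixed in advance. *Gzmb* with *Prf1* was at 1.19 times in lean and 1.34 times in obese cells of cluster 1, under different limits. *Serpinb9* with *Serpinb6b* was at 1.97 and 1.24 times in that cluster. Cluster 0 was mixed, with *Gzmb* and *Prf1* at 1.72 and 1.18 times and *Prf1* and *Serpinb9* at 0.90 and 1.11 times. Across all cells, the Pearson correlation of log counts of *Gzmb* and *Prf1* was 0.48 in lean and 0.28 in obese cells, and that of *Gzmb* and *Nkg7* was 0.41 and 0.27. *Serpinb9* and *Serpinb6b*, the pair with the highest ratio, correlated at 0.17 and 0.11. All points of a library share its depth after thinning and its mix of clusters, so these values are descriptions.

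Cells in the same range of *Gzmb* counts were compared for *Prf1*, and cells within a range can still differ in *Gzmb*. In the proliferating-like cluster 1, among cells with 1 or 2 *Gzmb* UMIs, a *Prf1* UMI was found in 75 of 147 lean cells, 51.0% (42.7% to 59.4%), and in 48 of 205 obese cells, 23.4% (17.8% to 29.8%). With 3 to 5 *Gzmb* UMIs the shares were 47.5% (38.2% to 56.8%) and 25.0% (15.5% to 36.6%), and with none they were 25.7% and 11.9%. In the effector-like cluster 3 the shares were nearer to each other, at 45.4% and 38.2% with 1 or 2 *Gzmb* UMIs and at 60.8% of lean cells and 15 of 30 obese cells with 3 to 5, with overlapping intervals. With no *Gzmb* UMI they were 22.2% and 12.3% in that cluster. In cluster 0 they were 21.8% and 13.9% with 1 or 2 and 20.8% and 21.7% with 3 to 5, also with overlapping intervals. With no *Gzmb* UMI the obese share was the higher in cluster 0, at 7.07% of 297 lean cells (4.43% to 10.6%) and 12.3% of 479 obese cells (9.51% to 15.6%), again with overlap. Among cells of clusters 1 and 3 with 1 or 2 *Gzmb* UMIs, a *Srgn* UMI was found in 83.2% of lean and 81.7% of obese cells. With 6 or more *Gzmb* UMIs the shares with *Prf1* were 71.4% and 51.4% in cluster 1, with overlapping intervals.

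**Figure D4:**
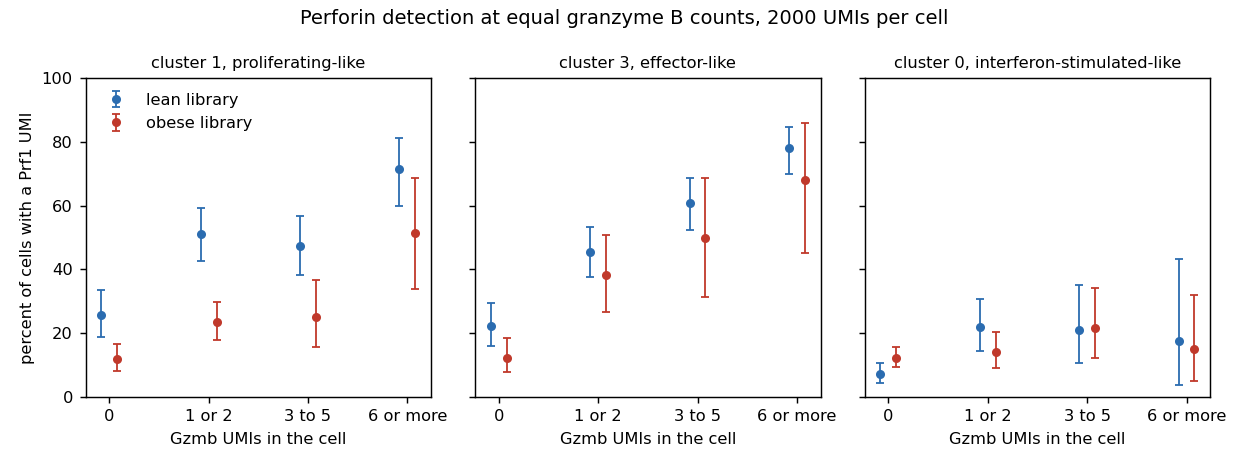
Percent of cells with a *Prf1* UMI by the number of *Gzmb* UMIs in the same cell, in clusters 1, 3 and 0, for the lean and the obese library after thinning to 2000 UMIs. Bars are exact binomial 95% intervals; in cluster 1 the lean and obese intervals are apart at 0, at 1 or 2 and at 3 to 5 *Gzmb* UMIs, while in clusters 3 and 0 they overlap in every range.

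A list of 61 other genes of granule formation, transport and release was set beside the 10 genes, and 51 of them had at least 10 CPM in 1 library. Of these, 6 were lower in the obese library by 0.5 or more, against 1.84% of all genes tested, and 5 of the 6 were granzymes. Among the 6, *Gzmd* and *Gzmg* reached 10 CPM only in the lean library. The filter thus set their direction in part, and the count of 6 is not read as a result. The 1 that was higher by 0.5 or more stands against 2.51% of all genes. Their median log2 ratio was −0.08. The 21 genes of granule traffic and secretion ranged from −0.33 to 0.13, with a median of −0.019. None of them was past 0.5 in either direction, which is near the shares of 1.84% and 2.51% over all genes and so is not particular to them. The lowest were *Lyst* (−0.33, 103 and 81.4 CPM), a regulator of lysosome size, *Sytl2* (−0.29), which links granules to the membrane, and *Rab27a* (−0.28, 52.6 and 43.2 CPM), the GTPase that docks them. The highest were *Stx4a* (0.13) and *Kif5b* (0.097), a syntaxin and a microtubule motor, and *Stx11* (0.097), a syntaxin of the release step. *Vamp8*, a vesicle SNARE, was named after its values were seen because it differed between clusters, with 333 and 503 CPM in cluster 3 (log2 ratio 0.60) and 313 and 306 CPM in cluster 1.

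Of 11 genes of biogenesis and sorting, 1 was lower by 0.5 or more: *Gnptab*, which makes the mannose 6-phosphate tag that carries enzymes to lysosomes, at 41.5 and 27.5 CPM, a log2 ratio of −0.60 (−0.73 to −0.47). *Igf2r*, a receptor for that tag, was at −0.34 and *Hps1*, a gene of lysosome-related organelles, at −0.20. The highest was *Calr*, the chaperone calreticulin that also resides in granules, at 243 and 311 CPM, a log2 ratio of 0.36 (0.31 to 0.40), followed by *Cd164* (0.29), a sialomucin of lysosomes and the cell surface, and *Ap3d1* (0.17), a subunit of the AP-3 sorting adaptor. *Calr* was higher in the obese library in each of clusters 0 to 4, by 0.29 to 0.46 on the log2 scale.

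Among 8 cathepsins and cystatins, *Ctsa* (−0.36), *Ctsd* (−0.21) and *Ctsb* (−0.20) were lowest and *Ctsl* (0.62, 11.8 and 18.1 CPM), *Ctsz* (0.26) and *Ctss* (0.10) highest. *Cst7*, which encodes cystatin F, the inhibitor that restrains cathepsin C in granules (named after seeing its values) stood at 127 and 124 CPM (−0.03). Of the 3 other serpins with at least 10 CPM, *Serpina3f* was at −0.38, *Serpinb6a* at −0.11 and *Serpina3g* at 0.086.

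The other granzymes were the group with the widest spread. Of 8 with at least 10 CPM in 1 library, *Gzmd* and *Gzmg* reached that level only in the lean library, so the filter itself set their direction in part. Of the 6 at 10 CPM or more in both libraries, 3 were lower by 0.5 or more: *Gzmc*, *Gzme* and *Gzmf*, which lie with *Gzmb*, *Gzmd* and *Gzmg* in the same gene cluster. *Gzmf* was at 291 CPM in lean and 21.7 CPM in obese cells, a log2 ratio of −3.75 (−3.87 to −3.63), *Gzmd* at 48.7 and 5.16 CPM (−3.24) and *Gzmg* at 390 and 3 UMIs (−7.07, −9.35 to −5.51). *Gzmc* was at 190 and 55.1 CPM (−1.79) and *Gzme* at 40.2 and 12.2 CPM (−1.72). *Gzmd*, *Gzme* and *Gzmf* served to name cluster 3 and were not used to build it. Granzymes of other loci differed less: *Gzma* was at 106 and 81.5 CPM (−0.38), *Gzmm* at 11.3 and 10.3 CPM (−0.13) and *Gzmk* at 68.7 and 94.0 CPM, higher in the obese library (0.45, 0.37 to 0.54). In cluster 1 *Gzmf* was at 317 and 19.1 CPM and in cluster 3 at 536 and 69.6 CPM.

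**Figure D5:**
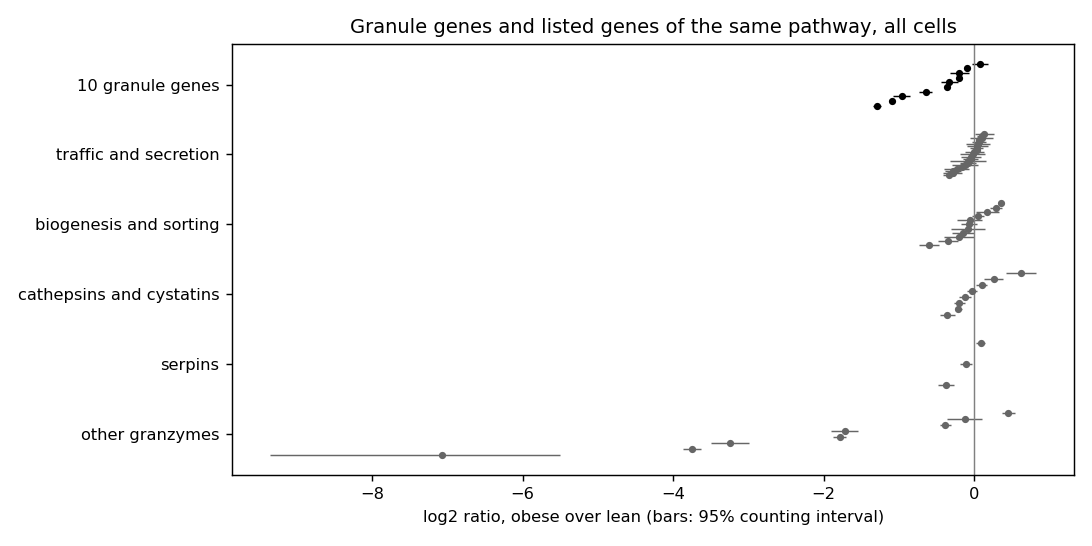
Log2 ratio of obese over lean for the 10 granule genes (black) and for the listed genes of the same pathway with at least 10 CPM in 1 library (grey), by role. Bars are 95% counting intervals. The 21 genes of traffic and secretion lie between −0.33 and 0.13. Below *Prf1* lie 5 of the other granzymes, of which *Gzmd* and *Gzmg* reached 10 CPM only in the lean library.

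Reads that fit near-identical copies can be split or dropped in counting, and how the counting treated them is not given in the sources used here. With the UMIs of its listed paralogs added, *Gzmb* had a log2 ratio of −1.42. Of 6 listed *Serpinb9* paralogs, 5 had no UMI. *Serpinb9b* had 724 UMIs in lean and 105 in obese cells, a log2 ratio of −2.83 (−3.14 to −2.53), and *Serpinb9* together with it had −1.28. *Serpinb6a* had 2368 and 2269 UMIs, so *Serpinb6b* together with it had −0.37, which does not reach the size of 0.5.

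The markers of other cell types were read beside these results. The 4 NK cell markers summed to 31.5 CPM in lean and 7.76 CPM in obese cells of cluster 1, and to 39.7 and 9.30 CPM in cluster 3, mostly from *Tyrobp* and *Fcer1g*, against *Gzmb* at 1584 and 756 CPM in cluster 1. These NK cell markers were at 56.7 and 20.2 CPM in cluster 2 and at 9.44 and 8.22 CPM in cluster 0. In the 8 lean and 21 obese cells of cluster 5 they summed to 4707 and 3036 CPM, which enters the sums over all cells. The 4 dendritic cell markers summed to 105 and 63.3 CPM in cluster 1 and to 99.6 and 168 CPM in cluster 3. The part of these cells in the granule genes was not tested. In the 4465 cells that had a *Cd8a* or *Cd8b1* UMI and none of *Cd4*, *Cd79a*, *Lyz2* or *Pmel*, the median of the 10 genes was −0.35 and 4 of them were lower by 0.5 or more. The share of all genes past that size in these cells is not given here, so the count only describes the 10 genes. This filter used no NK or dendritic cell gene and does not bear on the markers of those cells.

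The genes outside these lists whose counts followed the summed granule genes most closely from cell to cell were *Tmsb4x* (mean Pearson correlation of 0.52 over both libraries), *S100a4* (0.51), *AW112010* (0.51), *S100a6* (0.50) and *Lgals1* (0.49), among 2215 genes found in at least 10% of cells. *Lgals1*, which encodes galectin-1, had correlations of 0.57 in lean and 0.40 in obese cells and was at 2114 and 1718 CPM, a log2 ratio of −0.30. *S100a4* had correlations of 0.57 and 0.46 and was at 1598 and 1502 CPM. The 5 genes are themselves abundant, and all cells of a library share its mix of clusters.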

How the data were processed

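UMIs per gene and cell were counted by the authors with Cell Ranger 6.0.2 from 3′ libraries and deposited as raw counts, 1 matrix per library, with no normalization. The build named in the submitters' processing notes is mm10, and the annotation, the treatment of shared reads and the use of strand are not given in the sources used here. The authors' stated limits on cells (under 7.5% mitochondrial UMIs, over 500 and under 50000 UMIs) were applied here, since the deposited matrices hold 241 lean and 334 obese cells outside them. No doublet caller was run.

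UMIs were summed per library and given as CPM in Python 3.11.15 (numpy 2.4.6, scipy 1.17.1, pandas 2.3.3). Intervals are exact: Poisson for CPM, Clopper-Pearson for a share of cells, and conditional binomial for a log2 ratio, each for counting error only. Those for CPM and log2 ratios treat UMIs as independent and do not cover the spread between cells. Those for shares of thinned cells do not cover the spread between random thinnings. The interval of a difference of shares was combined from the bounds of both shares. That of a median is the mean of the bounds of its middle genes. Genes with at least 10 CPM in 1 library were compared. The steps were tested on simulated counts. Clustering was done by the Louvain method with Seurat 5.3.0 (R 4.3.3) on 20 principal components of 2000 log-normalized variable genes with 20 neighbours, at resolution 0.15, the lowest on a grid that gave 6 clusters. Cluster names follow listed markers. Co-detection used cells thinned to 2000 UMIs, and 126 lean and 112 obese cells were below that.

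Gene positions come from GENCODE for GRCm38, where 99.6% of the 32285 gene identifiers were found, and promoters from RefSeq for GRCm38.p6. Named genes are the 10 members, the 3 highest and 3 lowest listed pathway genes of each role, the listed paralogs and the 5 most alike genes, with any other said to be chosen after its values were seen. The members and lists were chosen with earlier results of these data known. Alternatives were TMM scaling with edgeR 4.0.16, another total, a mean over cells, other depths, other filters on cells, an equal mix of clusters, paralogs added and the default resolution of 0.8. Leaving out cluster 5, or clusters 4 and 5, was chosen after the data were seen.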

Additional observations from a re-analysis of the deposited data

Results flagged for a closer look

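*Srgn* differed in direction between clusters. Obese over lean, its log2 ratio in cluster 2, the naive- or memory-like cells, was 0.088 (0.0023 to 0.17), on 2450 and 2055 UMIs, and −0.16 (−0.23 to −0.08) in the interferon-stimulated-like cluster 0 and −0.12 (−0.16 to −0.08) in the proliferating-like cluster 1. In the shallow cluster 4 it was 0.71. The difference between clusters was not tested, since each group is 1 library.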

How the results depend on the processing

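Over all cells, the median log2 ratio of the 10 granule genes lay between −0.39 (TMM scaling) and −0.29 (cells thinned to 2000 UMIs) under every alternative run, and 3 or 4 of the genes were lower by 0.5 or more. The shares of all genes past that size under the alternatives are not given here. The difference in the share of cells with *Gzmb* and *Prf1* together moved to −7.25 points at 1000 UMIs per cell and to −11.2 points without thinning, and that with 5 or more granule genes to −3.21 and −1.03 points. Cells with 5 or more were 5.87% of lean and 2.66% of obese cells at 1000 UMIs, and 61.9% and 60.9% without thinning. The median depth without thinning was 7958 and 9103 UMIs. The part of depth, or of the cut at 5 genes, in these changes was not tested. The other 43 summary values moved by less than their interval or within 1.5 times of a count, and none whose interval was clear of 0 changed direction. Of 120 alternative values for single genes, 38 moved by more than the counting interval and none with an interval clear of 0 changed sign. *Lamp1* ranged from −0.22 (thinned to 2000 UMIs) to 0.086 and was below 0 under 2 of 12 alternatives. At 1000 UMIs per cell *Serpinb9* was at −0.48 and *Ctsc* at −0.55, and *Serpinb6b* was below the size of 0.5 under 3 of its 12 alternatives. Leaving out cluster 5, or clusters 4 and 5, gave medians of −0.36 and −0.37. At the default resolution no cluster matched cluster 4, so that alternative gave no value for it. No paired analysis was possible because each group is 1 library. The depth per cell limits what can be said of *Ctsc*, *Lamp1* and *Unc13d* in single cells.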
